A study of Homo sapiens with 7 samples.

Results

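The 373 genomic regions described here are places where an ATF4 peak and a MYC peak overlapped in DLD-1 MycER cells after 8 hr of MYC activation. Overlapping peaks (1 bp or more) of the 2 activated ATF4 libraries were joined into 3149 regions, and the 373 were those overlapping a peak of either MYC library by at least 1 bp. The remaining 2776 activated ATF4 regions lay on no MYC peak. Chromatin immunoprecipitation followed by sequencing (ChIP-seq) counts the DNA fragments that come down with an antibody to a protein, and a peak is a place where they pile up. DLD-1 is an established human colon adenocarcinoma line, and every sample came from DLD-1 cells carrying a retrovirus that expresses MycER, a MYC fusion protein held inactive until 4-hydroxytamoxifen is given. The groups were ATF4 in activated cells (500 nM 4-hydroxytamoxifen, 2 libraries), MYC in activated cells (the same treatment, 2 libraries) and ATF4 in control cells (vehicle, 2 libraries), with 1 IgG sample that has no peak list of its own. All groups carry the retrovirus, and cells given the inducer but lacking MycER are not among them, so effects of the inducer and of MYC activity cannot be told apart. MYC was profiled in activated cells, and its control-cell binding was not analysed here. The labels do not say whether replicates were separate cultures, so p-values measure only the spread between these libraries, which may be technical. They do not say either whether the MYC antibody separates MycER from the cells' own MYC.

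ATF4 is the transcription factor of the integrated stress response: when translation initiation is slowed by phosphorylation of eIF2alpha, the ATF4 protein is made more efficiently and turns on genes for amino acid import, amino acid synthesis and tRNA charging. It binds DNA as a dimer with a C/EBP family partner at a composite sequence, the C/EBP-ATF response element. MYC binds with MAX to E-boxes, mostly at promoters that are already open, and drives ribosome production, protein synthesis and growth.

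The sequence under a shared site can be read where the ATF4 region reached a promoter that the RefSeq table holds. In 10 windows, ATF4 peaks of both activated libraries and a MYC peak overlapped and a response element was found, and 8 of them are shown. The other 2 are those of FUT1, whose start lies in the FGF21 region and whose window holds the same element, and of S100PBP, which is drawn in the map. Each run is the 300 bases from 250 before to 50 after a listed transcription start, 5′ to 3′ on the gene's own strand, from RefSeq GRCh38.p14. Capitals mark matches to the C/EBP-ATF response element (TGATGNAA, or TTNCATCA on the opposite strand) and to the E-box (CACGTG, its own reverse complement), and no match overlapped another in these 8. The windows are chrX:9463045-9463344 (plus strand) for TBL1X, chr9:92293648-92293947 (minus) for IARS1, chr12:57487818-57488117 (plus) for MARS1 and chr18:57621787-57622086 (minus) for NARS1. The others are chr11:62881449-62881748 (plus) for SLC3A2, chr7:97872359-97872658 (minus) for ASNS, chr19:48755274-48755573 (plus) for FGF21 and chr1:204411768-204412067 (minus) for PPP1R15B.
TBL1X: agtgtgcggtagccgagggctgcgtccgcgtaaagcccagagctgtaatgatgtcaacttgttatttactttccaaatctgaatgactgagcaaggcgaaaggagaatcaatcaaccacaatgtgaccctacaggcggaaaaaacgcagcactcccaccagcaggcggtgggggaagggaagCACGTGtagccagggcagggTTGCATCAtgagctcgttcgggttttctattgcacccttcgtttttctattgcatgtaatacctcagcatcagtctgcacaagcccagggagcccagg
IARS1: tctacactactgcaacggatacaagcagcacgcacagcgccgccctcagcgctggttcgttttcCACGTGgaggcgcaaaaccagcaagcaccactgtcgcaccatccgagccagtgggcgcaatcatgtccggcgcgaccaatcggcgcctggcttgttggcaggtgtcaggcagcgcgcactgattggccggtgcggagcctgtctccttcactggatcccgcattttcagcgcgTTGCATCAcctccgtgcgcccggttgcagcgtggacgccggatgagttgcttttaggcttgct
MARS1: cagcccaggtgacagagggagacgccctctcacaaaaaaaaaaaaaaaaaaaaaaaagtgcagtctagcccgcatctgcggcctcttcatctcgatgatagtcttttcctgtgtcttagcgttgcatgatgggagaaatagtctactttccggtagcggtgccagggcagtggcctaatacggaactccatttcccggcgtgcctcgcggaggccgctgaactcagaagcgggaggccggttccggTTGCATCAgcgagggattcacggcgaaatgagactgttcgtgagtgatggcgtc
NARS1: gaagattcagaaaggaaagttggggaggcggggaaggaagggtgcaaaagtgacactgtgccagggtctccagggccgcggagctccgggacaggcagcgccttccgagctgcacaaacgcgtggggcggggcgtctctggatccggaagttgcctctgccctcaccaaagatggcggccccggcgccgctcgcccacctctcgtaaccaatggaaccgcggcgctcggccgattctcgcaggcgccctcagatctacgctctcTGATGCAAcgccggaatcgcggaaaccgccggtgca
SLC3A2: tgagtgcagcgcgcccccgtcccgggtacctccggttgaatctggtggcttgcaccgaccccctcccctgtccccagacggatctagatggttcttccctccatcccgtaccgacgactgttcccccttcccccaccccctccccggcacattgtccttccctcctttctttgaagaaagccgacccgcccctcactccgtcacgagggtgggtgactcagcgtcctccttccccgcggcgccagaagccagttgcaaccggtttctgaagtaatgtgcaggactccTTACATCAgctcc
ASNS: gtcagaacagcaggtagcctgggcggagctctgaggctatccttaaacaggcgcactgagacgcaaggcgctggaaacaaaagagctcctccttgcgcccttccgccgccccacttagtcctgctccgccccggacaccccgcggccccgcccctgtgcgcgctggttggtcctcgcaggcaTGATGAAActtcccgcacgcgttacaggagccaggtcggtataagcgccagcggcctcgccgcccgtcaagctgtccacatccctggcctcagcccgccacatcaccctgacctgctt
FGF21: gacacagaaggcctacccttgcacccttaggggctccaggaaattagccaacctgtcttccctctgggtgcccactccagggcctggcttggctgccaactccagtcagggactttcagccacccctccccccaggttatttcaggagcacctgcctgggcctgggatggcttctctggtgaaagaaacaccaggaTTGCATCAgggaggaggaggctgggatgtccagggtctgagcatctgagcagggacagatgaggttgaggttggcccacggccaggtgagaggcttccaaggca
PPP1R15B: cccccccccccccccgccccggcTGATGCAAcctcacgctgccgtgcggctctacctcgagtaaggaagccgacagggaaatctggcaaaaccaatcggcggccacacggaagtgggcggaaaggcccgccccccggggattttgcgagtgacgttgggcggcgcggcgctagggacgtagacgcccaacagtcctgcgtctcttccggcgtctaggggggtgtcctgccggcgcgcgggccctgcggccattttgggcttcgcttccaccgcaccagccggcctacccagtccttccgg

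TBL1X, which encodes a subunit of the NCoR corepressor complex, was the promoter among them with both motifs inside the ATF4 region. Its E-box began at -68 bp from the start and its response element at -48 bp, and the MYC peak centres lay at -72 and -67 bp in MYC replicates 1 and 2. IARS1, isoleucyl-tRNA synthetase, also had both, but its E-box, at -186 bp, lay outside the ATF4 region, which covered its response element at -13 bp. The MYC peak centres at IARS1 lay on either side of that element, at -181 bp in replicate 1 and 17 bp after the start in replicate 2. The replicate 1 peak was 149 bp wide and touched only the edge of the ATF4 region, which began at -107 bp. MARS1 and NARS1, the methionyl and asparaginyl synthetases, SLC3A2, the heavy chain of several amino acid carriers, and PPP1R15B, a subunit that brings a phosphatase to eIF2alpha, had a response element in the ATF4 region and no E-box in the window. The same held for ASNS, asparagine synthetase, and FGF21, a stress-induced hormone. The MYC support of ASNS, FGF21 and PPP1R15B came from replicate 2 alone.

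**Figure D1:**
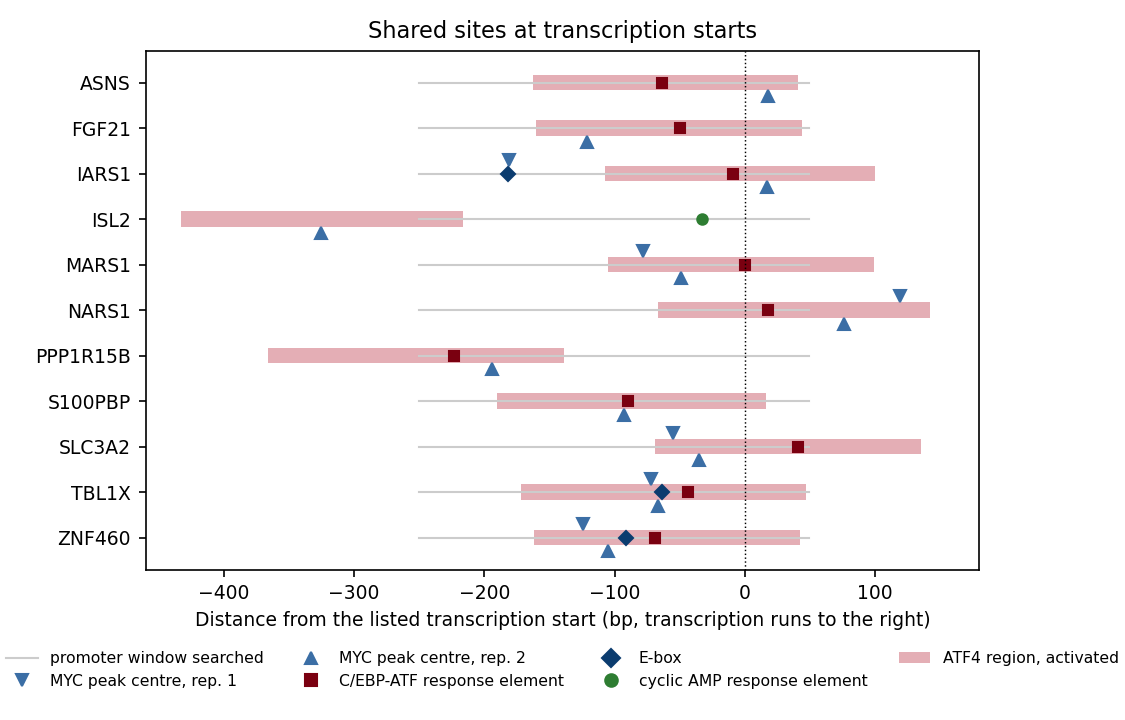
ATF4 regions of activated cells (pink bars), MYC peak centres (triangles, by replicate) and motif centres at 11 listed transcription starts, by distance from the start in bp along the gene. The response element lies within the ATF4 region at 10 of the 11 promoters, ISL2 being the exception, while E-boxes appear at IARS1, TBL1X and ZNF460. ZNF460 had its ATF4 peak in replicate 2 alone.

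The map of motifs and peak centres can be read against all promoters. The response element occurred in 595 of 22049 promoter windows of protein-coding genes (2.7%), in 15 of the 23 windows that overlapped one of the 373 regions (65.2%) and in 10 of the 13 where both ATF4 libraries had a peak (76.9%). The 3 without it were ISL2 and a second listed start of ASNS and of S100PBP, whose other windows held one. Windows are not all separate sites: FGF21 and FUT1 share a region and its element, and PCLAF and TRIP4 share a region. The match at NLRP12 lay outside its ATF4 region. Windows that overlapped an activated ATF4 region on no MYC peak held it in 7 of 25 (28%), and in 3 of 6 (50%) where both ATF4 libraries had a peak. Of the windows with a MYC peak in both libraries, 20 of 809 (2.47%) held it. The E-box gave another order, with 4 of 23 shared windows (17.4%), 0 of 25 ATF4 windows without MYC, 202 of 809 MYC windows (25%) and 1833 of all 22049 (8.31%). The cyclic AMP response element TGACGTCA occurred in 1 of the 23, at ISL2, and in 496 of all windows (2.25%). A match is a run of letters and not a measured binding site, the windows are few, and no test of these shares was made.

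Support across libraries was uneven. Of the 373 regions, 64 had a peak in both ATF4 and both MYC libraries, 85 in both ATF4 libraries and MYC replicate 2 alone, and 6 in both ATF4 libraries and MYC replicate 1 alone, so 155 rested on both ATF4 libraries. A further 77 rested on ATF4 replicate 1 alone, of which 8 had both MYC libraries, 52 MYC replicate 1 alone and 17 MYC replicate 2 alone. The last 141 rested on ATF4 replicate 2 alone, with both MYC libraries at 31, MYC replicate 1 alone at 6 and MYC replicate 2 alone at 104. Over all 373, MYC support came from both libraries at 103, from replicate 1 alone at 64 and from replicate 2 alone at 206. The replicate 2 libraries were deeper, with 49.8 M tags for activated ATF4, 50.1 M for MYC and 50.3 M for control ATF4, against 24.9, 21.0 and 22.4 M in replicate 1, and they listed weaker peaks. Taking each region's widest overlap with a peak of either MYC library, the smallest that made a member was 2 bp. The closest region left out had its nearest MYC peak 6 bp away. Only 6 members overlapped by 20 bp or less and 6 regions missed by 20 bp or less, while 293 members overlapped a MYC peak by at least 100 bp.

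**Figure D2:**
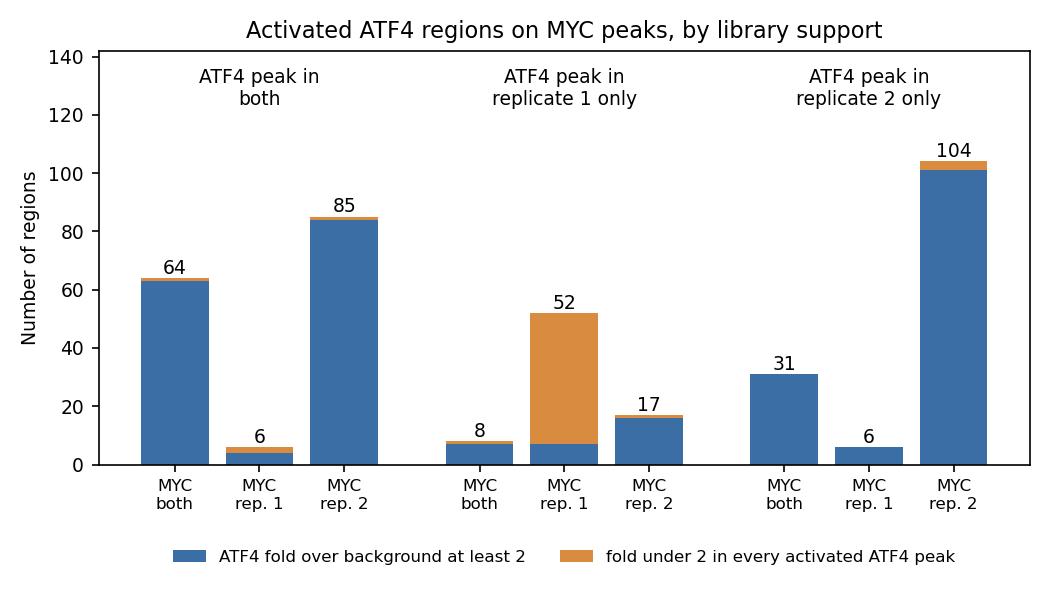
Number of the 373 regions by the libraries with a peak, ATF4 support in 3 blocks and MYC support within each, with regions under 2-fold over background in every activated ATF4 peak in orange. The 64 regions of full support and the 85 and 104 on MYC replicate 2 are almost wholly blue, whereas 45 of the 52 regions seen in replicate 1 of both factors are orange.

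One block of regions stood apart from the rest. At 54 of the 373 the authors' fold over the background library was under 2 in every activated ATF4 peak, which was 14.5% of the shared regions and 6.63% of the 2776 on no MYC peak. Their tags (the authors' normalized tag count per 10 M, the unit used throughout) were high all the same, with a median of 28.1 and a range of 4.81 to 116.6 in the 51 that had a peak in activated ATF4 replicate 1. The MYC replicate 1 library listed 49 of the 54 at a median of 27.6 tags, and the control ATF4 replicate 1 library 43 at a median of 34.4. The background library itself held a median of 18.7 tags per 10 M there. In the replicate 2 libraries, activated ATF4 listed 7 of the 54, MYC 7 and control ATF4 9. These regions were far from genes: 51 of the 54 lay outside protein-coding genes, 45 of them over 100 kb away.

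The level in 1 replicate 1 library of this block tracked that in another, whichever the antibody. Spearman's rho across regions was 0.99 between activated ATF4 and MYC (49 regions) and 0.99 between activated and control ATF4 (42 regions), and the median distance between ATF4 and MYC peak centres was 4 bp. Chromosome 16 held 17 of the 54, with 8 in the 15170 bp of chr16:46386349-46401518 and 9 in the 22559 bp of chr16:34573012-34595570. The 5 shared regions with the most MYC tags all belonged to this block. The highest lay on chromosome 16, 187830 bp from SHCBP1, with 116.6 tags in activated ATF4, 124.1 in MYC and 135.7 in control ATF4, all in replicate 1. Another lay on chromosome 3, 402379 bp from PROS1, with 101.4, 116.9 and 144.2 tags in the same order. At the remaining 319 regions the rho between activated ATF4 and MYC tags was 0.12 in replicate 1 (81 regions) and 0.28 in replicate 2 (279 regions). Between activated and control ATF4 tags it was 0.69 in replicate 1 (74 regions) and 0.76 in replicate 2 (99 regions). These rhos describe regions of the same libraries, which share their depth and scaling. Whether these tags reflect either factor was not tested, and most results below are given for regions with both ATF4 libraries, which hold 4 of the 54.

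**Figure D3:**
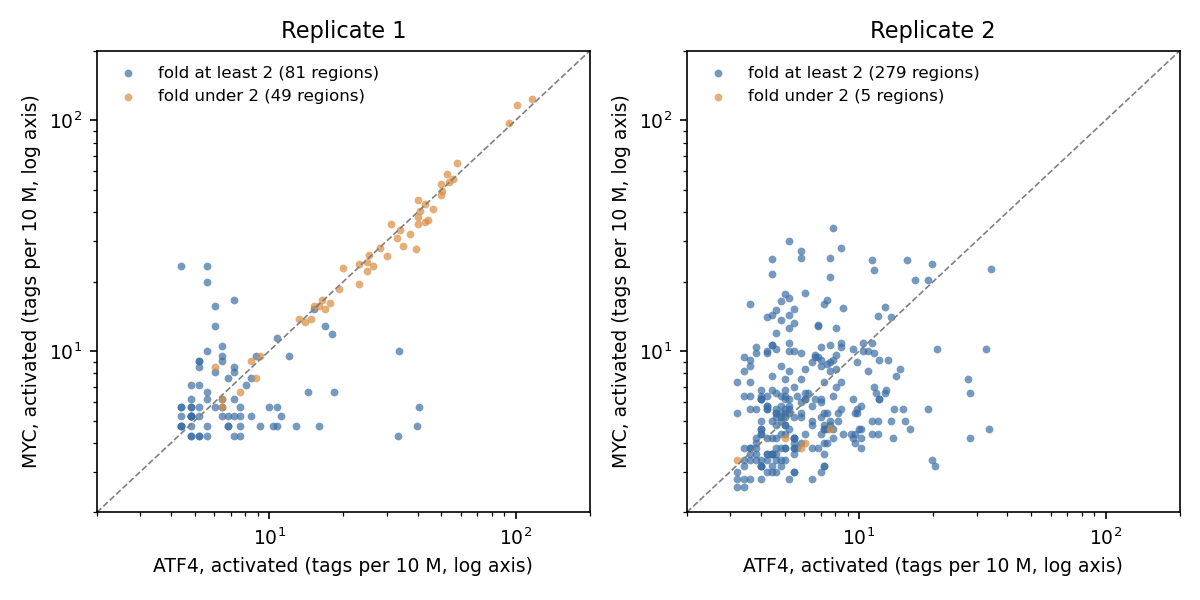
MYC tags against ATF4 tags per 10 M in activated cells at shared regions with a peak of both factors in the replicate, both axes logarithmic, the dashed line marking equal values. In replicate 1 the 49 orange points (under 2-fold over background in every activated ATF4 peak) follow the line up to 116.6 ATF4 and 124.1 MYC tags, while the blue points show no such order in either replicate.

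Where both libraries of each factor had a peak, ATF4 tags did not follow MYC tags. Over the 64 regions with both libraries of each factor, the rho between mean ATF4 and mean MYC tags was 0.0053, although 0.73 held between the ATF4 libraries and 0.74 between the MYC libraries. The strongest 3 in ATF4 ranged widely in MYC. The region inside SLC43A1, which carries large neutral amino acids, had 39.7 and 32.6 ATF4 tags and 4.75 and 10.2 MYC tags in activated replicates 1 and 2. The one inside TBC1D16, a GTPase-activating protein for RAB GTPases, had 33.7 and 34.4 ATF4 and 9.98 and 22.6 MYC tags. The one inside SLC7A5, the light chain of the leucine carrier, had 33.3 and 28.3 ATF4 and 4.28 and 6.59 MYC tags. At the TBL1X start, the values were the other way round, with 5.61 and 7.84 ATF4 tags and 23.3 and 34.1 MYC tags.

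Few MYC peaks lay under ATF4. The 373 regions took up 167 of 8636 MYC peaks in replicate 1 (1.93%) and 309 of 22532 in replicate 2 (1.37%). Of the 155 regions with both ATF4 libraries, 149 had a MYC replicate 2 peak, of which 49 were below that list's median of 4.99 tags and 23 were in its highest 10%, at 11.4 tags or more. In MYC replicate 1 the numbers were 70 with a peak, 26 below the median of 5.7 tags and 10 in the highest 10%, at 10.5 or more. Over all 373 regions the median MYC tags were 7.13 in replicate 1, with 56 of 167 in the highest 10%, and 5.59 in replicate 2, with 41 of 309, and the replicate 1 values include 49 of the 54 regions of the block. Seen from ATF4 the share was larger, and MYC lay under about every other one of the highest ATF4 peaks. Among peaks at least 2-fold over background, MYC lay under 6 of the 10 highest, 50 of the 100 highest and 94 of the 200 highest in activated ATF4 replicate 1, and under 7, 59 and 106 in replicate 2. The 155 had median ATF4 tags of 6.81 and 7.84 in replicates 1 and 2, against 5.61 and 6.43 for the 197 regions that had both ATF4 libraries and no MYC peak. That difference was not tested.

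Overlap of peaks this narrow fixes that their centres are close, so the distances are a description. The median distance between the peak centres was 54.5 bp over the 155 regions and 58.75 bp over the 64 with full support, and 120 of the 155 were within 100 bp. Most of the regions lay away from starts. Of the 155, 21 (13.5%) lay within 1000 bp of a listed transcription start, 7 (4.52%) within 1000 bp of another boundary of a gene span, 61 (39.4%) inside a protein-coding gene and 66 (42.6%) outside one. For the 197 on no MYC peak these shares were 6.6%, 2.54%, 39.1% and 51.8%, and for the 6313 MYC regions of both libraries 25.3%, 6.8%, 35.8% and 32.1%. The start share of the shared regions thus lay between those of ATF4 alone and MYC, with no test made. A start is listed for 15843 of the 20056 protein-coding genes, so some boundaries are starts as well. None was listed for the 715 protein-coding genes of chromosome 8. No region there, such as that of EIF4EBP1, could be classed at a start or searched for motifs.

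Among the gene lists, shared regions lay at genes of the stress response, amino acid supply and tRNA charging. So did activated ATF4 regions taken with or without MYC. They lay at 10 of 27 stress response regulators, 9 of 24 aminoacyl-tRNA synthetases and 7 of 23 amino acid transporters. The counts were 7 of 23 for amino acid synthesis and 2 of 18 for one-carbon metabolism, against 1.56% of all protein-coding genes. A shared region lay within 1000 bp of a start or end of 68 of 20056 protein-coding genes (0.339%). Of these genes, 18 belonged to the lists of stress response, amino acid supply, tRNA charging and one-carbon metabolism. Of the 18, 15 had both ATF4 libraries, 7 of them both MYC libraries as well. Of those 15, 4 had no control ATF4 peak, 4 had a peak in 1 control library and 7 in both. Over all 352 regions of both activated ATF4 libraries, 43.2% had no control peak and 29.8% had both, so having none does not mark these genes. The lists were chosen with earlier results of these data known, so their counts describe and do not test.

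Stress response regulators had a shared region at 5 of 27 genes, with any activated ATF4 region at 10. FGF21 had the highest ATF4 tags, 42.5 and 33.6 in activated replicates 1 and 2, against 22.3 and 14.5 in control replicates 1 and 2, with 4.59 MYC tags in replicate 2 only. DDIT4, an inhibitor of the growth kinase mTORC1, had 40.5 and 38.4 activated against 26.8 and 20.9 control tags, 897 bp from its start (chr10:72272820-72273027), with 5.7 MYC tags in replicate 1 only. At both genes the activated and control values did not overlap. VLDLR, a lipoprotein receptor, had 10.8 and 12.1 activated against 6.25 and 5.17 control tags with 6.19 MYC tags in replicate 2. EIF4EBP1, the translation repressor 4E-BP1, had 12 and 19.7 activated against 10.7 and 10.1 control tags, beside a strong MYC peak of 23.9 tags in replicate 2. CEBPB, which encodes a binding partner of ATF4, had 7.22 and 12.7 activated tags, against 5.96 in control replicate 2 and no peak in control replicate 1. Its MYC peaks had 8.56 and 15.6 tags in replicates 1 and 2, so CEBPB was the member of this list with both libraries of each factor.

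The aminoacyl-tRNA synthetases, which load amino acids onto tRNA, had shared regions at 5 of 24 genes, and MYC regions of both libraries at 9. IARS1 had 8.82 and 11.3 activated tags, against 4.77 in control replicate 2 and none listed in control replicate 1, with 9.51 and 24.9 MYC tags. MARS1 had 7.22 and 8.04 activated tags and 4.28 and 6.99 MYC tags, and NARS1 had 4.81 and 6.83 activated tags and 6.18 and 13 MYC tags. Neither MARS1 nor NARS1 had a control ATF4 peak, and both had peaks in every activated library of either factor. NARS1 in activated replicate 1 was little above the lowest tag count of the control replicate 1 list (4.46). The MARS1 region is shared with a boundary of the neighbouring ARHGAP9. YARS1, tyrosyl-tRNA synthetase, shares its region with the start of S100PBP, which had 6.81 and 9.44 activated tags against 4.91 in control replicate 1 only. EPRS1, the glutamyl and prolyl synthetase, rested on ATF4 replicate 2 alone, with 5.83 activated against 3.78 control tags.

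Amino acid transporters had shared regions at 4 of 23 genes. SLC7A11, the cystine and glutamate exchanger, had 6.41 and 11.9 activated against 5.36 and 5.77 control tags with 9.03 and 14.2 MYC tags. Its partner chain SLC3A2 had 6.81 and 10.4 activated tags, against 9.82 in control replicate 1 and none listed in control replicate 2, so the groups overlapped. SLC38A1, a glutamine carrier, had 6.01 and 6.03 activated tags, no control peak, and 8.08 and 17.8 MYC tags. SLC7A1, the arginine and lysine carrier, rested on 5.21 tags in activated replicate 1 alone. Amino acid synthesis had shared regions at 4 of 23 genes. ASNS had 14 and 15.3 activated against 5.8 and 6.36 control tags, and SHMT2, serine hydroxymethyltransferase, 14.8 and 13.1 against 13.8 and 8.35. At SHMT2 the groups overlapped. GPT2, alanine aminotransferase, had 4.41 and 7.23 activated tags and no control peak, and GOT1, aspartate aminotransferase, 4.42 in activated replicate 2 alone. GPT2 in replicate 1 was below the lowest tag count that the control replicate 1 list held (4.46).

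**Figure D4:**
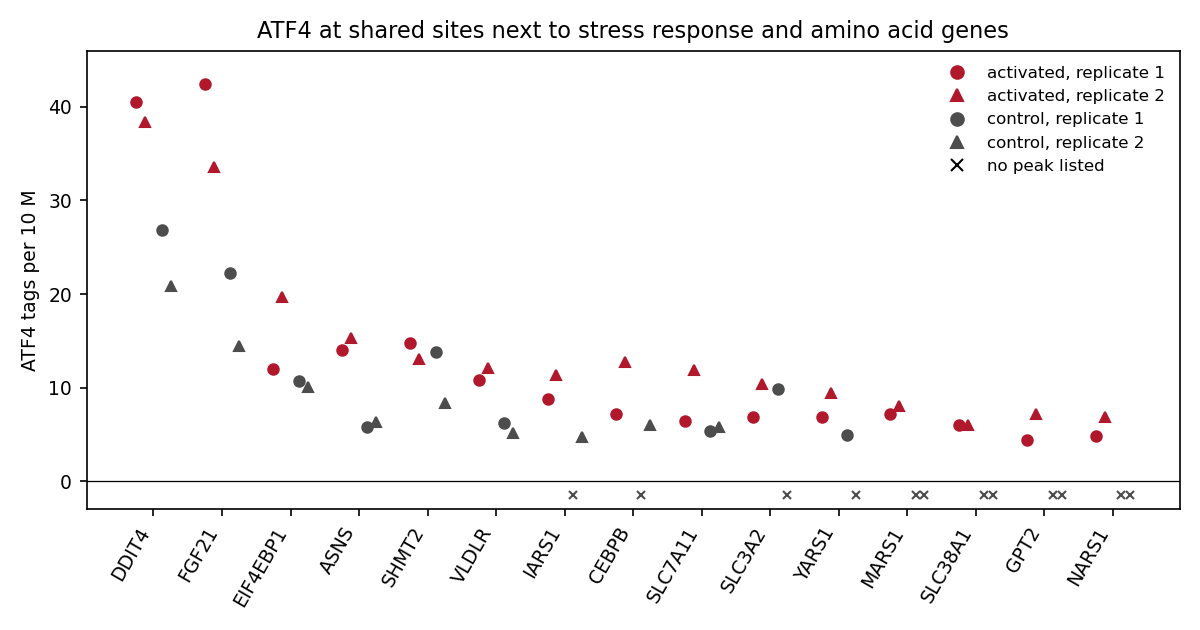
ATF4 tags per 10 M at the 15 genes of these lists with a shared region in both activated ATF4 libraries, activated (red) left of control (grey), by replicate, with crosses for libraries that listed no peak. DDIT4 and FGF21 reach 33.6 tags or more in both activated libraries and the rest stay below 20 tags, while MARS1, SLC38A1, GPT2 and NARS1 have crosses in both controls.

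Lists of classical MYC targets are read against the 0.339% of all protein-coding genes with a shared region, at which lists of this size would hold few or none. Of 24 ribosome biogenesis genes 0 had one, while 19 had a MYC region of both libraries and 1 an activated ATF4 region. Among 24 growth and metabolism targets SHMT2 was the only one, with 12 bearing MYC, and it was also the only one of 18 one-carbon genes. The MYC network (0 of 16, with MYC at 3), colon epithelial markers (0 of 12, with MYC at 1), and blood cell and fibroblast markers (0 of 10 each) had none. Over all protein-coding genes MYC regions of both libraries lay at 11.5% and activated ATF4 regions at 1.56%. Peak lists do not measure expression, so they give no check of the cell type.

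Beyond these lists, strong sites of full support lay inside or near genes of many kinds. ATXN1, whose product is a transcriptional corepressor mutated in a spinocerebellar ataxia, had 16 and 13.9 activated against 8.04 and 6.16 control tags. OXR1, an oxidation resistance gene, had 18.4 and 11.5 against 8.93 and 7.75. A region 260104 bp from KLF4, a transcription factor of gut epithelium, had 14.4 and 16.9 against 14.7 and 8.15, and its groups overlapped. One 7631 bp from NRSN2 had 15.2 and 15.7 activated against 14.3 and 9.34 control tags. Regions with a smaller total lay inside EEIG1, LRRC59, CEP112, POFUT1, RAD51B and PPIAP60 and near LARP6, DAZL and SLC45A1, with 6.41 to 14.1 activated tags. Besides TBL1X, starts with full support outside the lists were those of SH3BP2, an adaptor protein (7.62 and 10.4 activated against 5.36 and 4.57 control tags), TXNDC12 with BTF3L4, IRAK1BP1 and DENND1B, and the last 3 had no control peak.

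The presence of control peaks at the shared regions is given as a description. These regions were chosen for their activated ATF4 peaks, so only a control peak could be missing. The counts therefore cannot answer whether activation brought ATF4 to shared sites. Of the 155 regions with both activated ATF4 libraries, 52 (33.5%) had no control ATF4 peak, 44 (28.4%) a peak in 1 control library and 59 (38.1%) a peak in both. Over all 352 activated regions of both libraries, on MYC or not, 43.2% had no control peak and 29.8% had both. Of the 64 with full MYC support, 24 had none, 17 had 1 and 23 had both. The strongest without a control peak lay 105852 bp from SLC45A1 (6.41 and 11.5 activated tags, 9.51 and 22.4 MYC tags). Next were 128848 bp from SLC1A4, a neutral amino acid carrier (8.02 and 9.85), 5390 bp from DUSP8, a phosphatase of MAP kinases (9.22 and 8.04), 8234 bp from TNFSF8, the CD30 ligand (7.22 and 10), and inside OSBP2, an oxysterol-binding protein (9.22 and 7.03). The control lists had higher lowest values (4.46 and 2.98 tags in replicates 1 and 2) than the activated lists (3.21 and 2.81), so the absence of a control peak is not an absence of tags.

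The share of ATF4 peaks on MYC was taken over each library's own peaks. It was 17.8% (226 of 1270, exact Clopper-Pearson 95% interval 15.7 to 20.01%) and 13.3% (296 of 2231, 11.9 to 14.7%) in activated replicates 1 and 2, against 14.8% (136 of 916, 12.6 to 17.3%) and 8.3% (131 of 1579, 6.98 to 9.77%) in control replicates 1 and 2. The means were 15.5 ± 3.2% and 11.6 ± 4.63% (SD, n = 2 each), a difference of 3.96 percentage points that the two-sided exact permutation test did not separate from the spread (p = 0.667). With 2 against 2 libraries that test cannot go below 0.333. The activated share was higher within each replicate number, and it remained so among peaks at least 2-fold over background, with 14.8 and 13.4% activated against 10.5 and 7.75% control. The MYC peaks were those of activated cells in every case.

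ATF4 tags were then compared where every one of the 4 ATF4 libraries had a peak, 105 regions of which 59 lay on a MYC peak, by limma on log2(tags + 1) with Benjamini-Hochberg adjustment over the 105. Tags were higher after activation (adjusted p under 0.05) at 39 of the 105 (37.1%) and lower at 0 (0.0%). At the shared regions 20 of 59 (33.9%) were higher and 0 lower, close to that background. At an unadjusted p under 0.05, 32 of the 59 were higher and 0 lower, against 57 of the 105 (54.3%) higher. By edgeR on recovered tags 27 of the 59 were higher and 0 lower, against 52 of the 105 (49.5%) higher. Among the 46 on no MYC peak 19 were higher. The median log2 change was 0.54 at the shared regions and 0.54 over all 105. Both activated libraries were above both control libraries at 46 of the 59, against 73.3% of the 105. The median log2 change at the shared regions was 0.38 in replicate 1 and 0.73 in replicate 2. All calls were lost with a replicate block (0 of 59, smallest limma adjusted p over the 105 of 0.115) and when any 1 library was left out. They were also lost when each library was centred on its median. Centring moved the median change at the shared regions to -0.11. It gave 0 of the 59 higher and 3 lower, against 0 of the 105 higher and 9 lower.

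ASNS showed the largest change among the shared regions (chr7:97872341-97872590), with 14.65 ± 0.919 tags in activated and 6.08 ± 0.396 in control cells (SD, n = 2 each), a log2 change of 1.14 ± 0.29 (standard error, limma adjusted p = 0.00601). The FGF21 region, 38.05 ± 6.29 against 18.4 ± 5.52 tags, had a log2 change of 1.03 ± 0.32 (standard error, adjusted p = 0.0114). VLDLR, 11.45 ± 0.919 against 5.71 ± 0.764 tags, had one of 0.89 ± 0.29 (standard error, adjusted p = 0.0158). Each of these starts had a MYC peak in replicate 2 only. Of the 9 called regions with both MYC libraries the largest changes were inside ATXN1 (log2 change 0.98, limma adjusted p = 0.00914) and EEIG1 (0.97, 0.00985), a gene named for its response to estrogen. The other 7 were near DAZL, a germ cell RNA-binding protein (0.91), inside TBC1D16 (0.80), OXR1 (0.74), RAD51B, of homologous recombination (0.71), CEP112, a centrosomal protein (0.70), and RANBP2, of the nuclear pore (0.54), and at the start of SH3BP2 (0.74).

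Called regions with a MYC peak in 1 library lay mostly away from starts. FNDC3B, a membrane protein, had 17.65 ± 2.9 activated against 7.94 ± 3.34 control tags inside the gene (log2 change 1.11, limma adjusted p = 0.00601), with 0.55 in replicate 1 and 1.66 in replicate 2. Other regions inside genes were those of B4GALT5, a galactosyltransferase (0.96), INPP5F, an inositol phosphatase (0.79), and KIF21B, a kinesin (0.75). Regions outside genes lay near DYM (0.96), MRPS18A, of the mitochondrial ribosome (0.90), and GNLY, a cytotoxic granule protein (0.88). ISL2, a homeobox factor, had its region 216 bp from the start (0.91). Several of the strongest shared regions did not pass. DDIT4 had a log2 change of 0.71 (limma adjusted p = 0.0721), SLC43A1 0.70 (0.0721), SLC7A5 0.63 (0.0865) and TCP11L2, with its region 9174 bp away, 0.63 (0.0865). The list genes SLC7A11 (0.58, limma adjusted p = 0.0728), EIF4EBP1 (0.53, 0.125) and SHMT2 (0.34, 0.302) did not pass either. At DDIT4 and SLC43A1 edgeR gave adjusted p-values of 0.0436 and 0.0461, under the threshold. At SLC7A11 and EIF4EBP1 it gave 0.0224 and 0.0461, also under it. At RANBP2 it gave 0.0509 and at SHMT2 0.238, both over it.

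**Figure D5:**
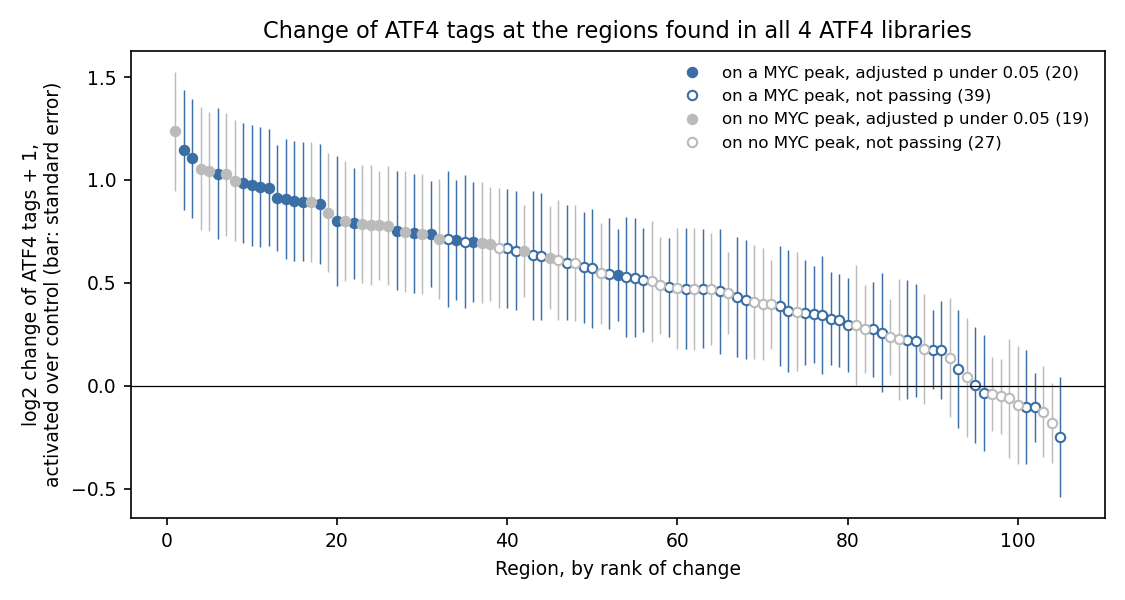
Log2 change of ATF4 tags + 1, activated over control, with standard errors, at the 105 regions found in all 4 ATF4 libraries, ranked by change, shared regions in blue and the others in grey, filled where the limma adjusted p was under 0.05. Blue and grey mix along the whole range, from 1.14 at ASNS to -0.25 at the lowest shared region, with 20 filled blue and 19 filled grey points.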

How the data were processed

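ATF4 and MYC ChIP-seq of DLD-1 MycER cells gave 6 peak lists, 1 per library and not pooled, and no list of the IgG sample was used. Tools named per the submitters' processing notes are HOMER and Bowtie 0.12.9, on hg38, with no settings given. Levels are normalized tag counts, which per the file headers are a signal, scaled by the authors to 10 M tags in each library. For each peak the deposited lists add the authors' score, their focus ratio (a fraction), their fold against background and against the local surroundings (a ratio), and the p-value of either fold. Per the file headers, total tags are an unscaled count in replicate 1 lists but a scaled signal in replicate 2 lists, so the count test that had been planned for whole counts was replaced by limma. The file headers do not name the background library. Steps between low values gave the depth, and with it all values were whole tags within 0.1 tag (0.3 for high values) in 100% of peaks.

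Peaks were merged and overlapped in Python 3.11.15 with pandas 2.3.3, and the count of 373 was checked with bedtools 2.31.1. Tags at a region are those of its strongest peak in a library. ATF4 tags were tested with limma 3.58.1 in R 4.3.3 (trend, log2(value + 1), Benjamini-Hochberg over the 105 regions that every ATF4 library listed, threshold 0.05), and edgeR 4.0.16 on recovered tags was an alternative. The limma fit was also run on simulated data, and edgeR was not. Fold changes on this scale understate the change of weak regions, and the test covers only sites called in every library. Shares per library were compared by an exact permutation test that ran over every split of the libraries, and intervals cover counting error only. Spearman's rho was computed with scipy 1.17.1. Genes and promoter windows were those of RefSeq GRCh38.p14, matched by symbol and coordinates. Motifs were searched on both strands.

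Named regions were the shared ones passing limma (up to 20 by size), the 4 strongest not passing, the 20 strongest with both libraries of each factor and all such at a gene start or end, list genes with a shared region within 1000 bp, and the 5 highest in MYC and the 5 highest without a control peak. The members, the gene lists and the comparisons were chosen with earlier results of these data known. Alternatives were another overlap, minimum folds, pseudocounts, a minimum mean, centring, the replicate block and leaving out each library.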

Additional observations from a re-analysis of the deposited data

How the results depend on the processing

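The number of shared regions was 373 and became 220 when each peak had to be 4-fold over background and 64 with both libraries of each factor required, and leaving out 1 library at a time gave 167 to 309. An overlap of 50% of the shorter region gave 314 and a 2-fold minimum, chosen after seeing the data, 311. The share of ATF4 peaks on MYC stayed higher in activated than in control libraries under every alternative run, by 0.684 to 7.24 percentage points when 1 library was left out. With so few libraries the exact permutation p cannot go below 0.333, so the test decides none of these alternatives. Of the 59 shared regions tested, 20 were higher after activation. That count was 9 (of 23 regions) with both libraries of each factor required, an alternative chosen after seeing the data, and 0 with a replicate block, 0 with each library centred on its median and 0 to 0 when 1 library was left out (smallest limma adjusted p 0.0623, 0.141, 0.0872 and 0.164 without activated replicate 1, activated replicate 2, control replicate 1 and control replicate 2, with 19, 17, 28 and 13 higher at an unadjusted p under 0.05). Leaving out a library leaves 1 in its group, whose spread is taken from the other group. With the block 20 were higher at an unadjusted p under 0.05, and with centring 1. The labels do not say what a replicate number marks, although depth and the listing of the 54 low-fold regions follow it. Same-numbered libraries deviated with a correlation of 0.098 over the 105 regions, from 2 pairs, and were not treated as pairs. Centring changed the sign at RANBP2 (-0.11), SLC7A5 (-0.011) and TCP11L2 (-0.015) among the 24 regions named for their change or height. It takes the same 0.64 (log2) from every region, so by construction all smaller increases turn sign, 32 of the 59 shared regions in all. Counts of 16 to 27 came with the other pseudocounts, minimum tags, minimum folds and edgeR. Depth limits the replicate 1 lists, whose lowest tags were 3.21 and 4.46 in activated and control ATF4.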

Other observations

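A few shared regions with both activated ATF4 libraries lay at or near genes of stress signalling and lipid control that no list held or that the rule for named regions left out, and they were chosen after their values were seen. SREBF1, a transcription factor of lipid synthesis, had 14.8 and 15.1 ATF4 tags in activated replicates 1 and 2, against 10.7 and 7.75 in control replicates 1 and 2, with 5.59 MYC tags in replicate 2 and a region 323 bp from its start. Its activated values were above its control values, as at 73.3% of the 105 regions tested, and it did not pass the threshold (limma adjusted p = 0.0601). STK40, a kinase, had 17.2 and 19.1 activated against 16.5 and 10.5 control tags beside a MYC replicate 2 peak of 20.4 tags. TRIB3, a feedback inhibitor of the stress response, had a region 4434 bp away with 14 and 16.1 activated against 13.8 and 11.7 control tags. Neither STK40 nor TRIB3 passed (limma adjusted p = 0.216 and 0.512). At PPP1R15B, whose promoter holds a response element, tags were 4.41 and 7.03 in activated replicates 1 and 2, against 6.25 in control replicate 1 and no peak in control replicate 2. The groups overlapped there.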
